A study of Mus musculus with 8 samples.

Results

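The 36 genes described here encode aminoacyl-tRNA synthetases, the enzymes that attach amino acids to their transfer RNAs. They were picked by gene symbol from a list drawn up with earlier results of these data known, and comprise 20 cytosolic synthetase genes and 16 mitochondrial ones, whose symbols end in 2. They are 36 of the 23337 gene symbols in the expression tables. All 36 were present in all 8 libraries, and no member was listed at 0 in any library. Messenger RNA was measured in naive CD4 and CD8 T cells (CD62L-positive, CD44-low) sorted from spleens and mLNs, as the labels write the lymph nodes, of mice 4 weeks old. The mice were wild type (WT) or CD4-cre Trappc1 cKO, a conditional knockout (KO) of Trappc1, and the 4 groups, WT and KO for each of the CD4 and CD8 lineages, hold 2 libraries each. CD4-cre is expressed in developing thymocytes, so it acts in both lineages before they separate. The sources used here do not say whether the WT mice carried the Cre or whether a library came from 1 mouse or from pooled mice.

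Each synthetase recognises an amino acid and the matching transfer RNA, joins them at the cost of ATP, and so sets the meaning of the codon that the ribosome reads. Most of these enzymes exist as separate cytosolic and mitochondrial proteins made from separate nuclear genes, while Gars and Kars each encode both forms. Several cytosolic synthetases are held with the scaffold proteins Aimp1, Aimp2 and Eef1e1 in the multisynthetase complex. Resting naive T cells make little protein, and synthetase levels are known to rise when T cells are activated and grow. The transcription factor ATF4, which is translated when amino acids run short or the endoplasmic reticulum is stressed, is known to drive many cytosolic synthetase genes.

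Aligned sequence ranged from 3.03 to 4.01 gigabases per library. The deposited values are TPM, a length-corrected share of all transcripts, so levels may be compared between genes. Trappc1, the targeted gene that encodes a core subunit of the TRAPP vesicle-tethering complexes, stood at 78.7 and 55.0 TPM in the WT and 30.5 and 32.8 in the KO libraries of CD4 cells, and at 81.2 and 40.3 in the WT and 56.9 and 45.6 in the KO libraries of CD8 cells. The KO values lay below both WT values in CD4 cells (-1.03 ± 0.40, limma adjusted p = 0.235) and between them in CD8 cells (-0.16 ± 0.40, limma adjusted p = 0.869). The lower CD8 WT value is that of replicate 2, the library described below. The CD8 difference was -0.66 without that library and 0.33 without replicate 1. The deleted part of the gene is not given, so a value over the whole gene is a weak check of the labels. Summed CD4 lineage markers were 546 to 790 TPM in the CD4 libraries and 2.90 to 15.5 in the CD8 libraries, and summed CD8 lineage markers were 872 to 2830 TPM in the CD8 libraries and 47.0 to 86.7 in the CD4 libraries. 1 library, labelled CD8 WT replicate 2, differed from the rest. Its 8 measured erythroid markers summed to 92117 TPM against 59.3 to 2210 in the other libraries, its 10 myeloid markers to 29666 against 72.0 to 2187, and its 6 measured T cell markers to 1866 against 3265 to 5032. Results that rest on it are given with and without it.

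At the median, cytosolic synthetase messages were more abundant than mitochondrial ones in every group. The median cytosolic member averaged 112 TPM in WT and 66.1 in KO CD4 cells, and 97.7 in WT and 70.6 in KO CD8 cells. The median mitochondrial member averaged 19.4 and 9.53 TPM in WT and KO CD4 cells and 14.5 and 9.56 in WT and KO CD8 cells. Nars, which charges asparagine tRNA, had the highest mean over the 8 libraries, while Kars was highest in both WT groups and Farsa in CD4 KO cells. Nars stood at 390 and 211 TPM in the WT and 233 and 245 in the KO libraries of CD4 cells, and at 234 and 348 in the WT and 281 and 336 in the KO libraries of CD8 cells, so its groups overlapped. Wars, for tryptophan, had the lowest cytosolic mean, at 14.4 and 17.4 TPM in the WT and 8.79 and 16.5 in the KO libraries of CD4 cells, and at 16.4 and 10.3 in the WT and 19 and 21.1 in the KO libraries of CD8 cells. Among the mitochondrial members Tars2, for threonine, had the highest mean over the 8 libraries, at 149 and 143 TPM in the WT and 130 and 120 in the KO libraries of CD4 cells, and at 107 and 62.0 in the WT and 89.7 and 64.1 in the KO libraries of CD8 cells. Wars2, for mitochondrial tryptophan, had the lowest mean, at 3.83 and 7.76 TPM in the WT and 2.58 and 1.37 in the KO libraries of CD4 cells, and at 7.65 and 6.49 in the WT and 3.95 and 2.41 in the KO libraries of CD8 cells. The order differed between groups, with Yars the lowest cytosolic member in CD8 KO cells, Hars2 the highest mitochondrial member there, and Yars2 and Vars2 the lowest mitochondrial members in CD4 WT and CD8 WT cells.

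**Figure D1:**
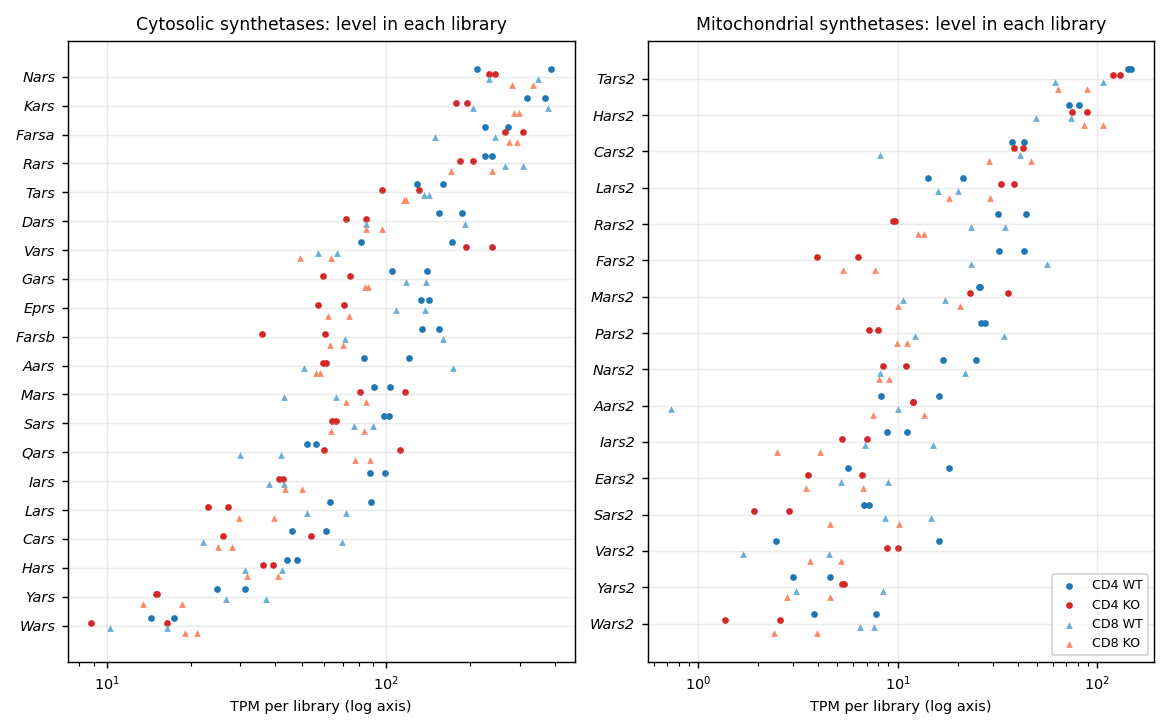
TPM of each cytosolic (left) and mitochondrial (right) synthetase gene in each of the 8 libraries, on a log axis, with members ordered by their mean; each point is 1 library, colours mark the 4 groups, and circles and triangles mark CD4 and CD8 cells. Cytosolic members run from Wars to Nars and mitochondrial members from Wars2 to Tars2, and Hars2 reaches the level of the cytosolic members.

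Of the 13 pairs in which a cytosolic and a mitochondrial gene share a symbol up to the final 2, Hars and Hars2, for histidine, were the pair in which the mitochondrial message exceeded the cytosolic one in all 8 libraries. Hars2 was 1.5 to 2.72 times Hars, with Hars2 at 81.3 and 72.3 TPM in the WT and 75.2 and 89.6 in the KO libraries of CD4 cells, and at 74.3 and 49.8 in the WT and 107 and 86.6 in the KO libraries of CD8 cells. The starts of Hars and Hars2 lie head to head, 74 bases apart. Cars2 exceeded Cars in 4 libraries, Lars2 exceeded Lars in the 2 CD4 KO libraries, and Tars2 exceeded Tars in 2. In the other 9 pairs the cytosolic message was higher in all 8 libraries, and Nars2 had the smallest ratio, at 0.0236 to 0.0928 of Nars.

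In CD4 cells most cytosolic synthetase messages were lower in KO than in WT, while no member passed the test. The cytosolic total was 2674 and 2601 TPM in WT against 1848 and 2103 in KO CD4 cells, a ratio of 0.749 between the group means. Of the 20 cytosolic genes 16 were lower and 4 higher, with a median log2 difference of -0.55 against -0.16 over all 11786 genes tested. In bulk RNA, fewer cells of a type and less RNA per cell cannot be told apart. KO and WT values did not overlap for 12 cytosolic genes with lower KO levels (Aars, Dars, Eprs, Farsb, Gars, Hars, Iars, Kars, Lars, Rars, Sars and Yars), a pattern seen in 36.5% of all genes. They did not overlap for 2 that were higher (Qars and Vars), against 21.7% of all genes. Differences here and below are in log2(TPM + 1), with limma's standard error and an adjusted p taken over all genes.

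The 6 cytosolic genes with the lowest p in CD4 cells were Lars, Farsb, Eprs, Iars, Dars and Gars. Lars, which charges leucine tRNA, measured 88.5 and 62.8 TPM in WT against 23.1 and 27.2 in KO CD4 cells, a log2 difference of -1.53 ± 0.36 (SE, limma adjusted p = 0.0923). Farsb, the beta subunit of phenylalanyl-tRNA synthetase, measured 134 and 155 TPM in WT against 35.9 and 60.5 in KO CD4 cells (-1.61 ± 0.42, limma adjusted p = 0.117). Both genes were below the lower WT library in each KO library. Eprs, a bifunctional enzyme for glutamate and proline, measured 142 and 133 TPM in WT against 56.8 and 70.5 in KO CD4 cells (-1.11 ± 0.30, limma adjusted p = 0.123). Iars, for isoleucine, measured 99.2 and 87.2 TPM in WT against 41.2 and 42.9 in KO CD4 cells (-1.13 ± 0.31, limma adjusted p = 0.126). The 2 KO libraries of Iars lay close together and below both WT libraries. Dars, for aspartate, measured 187 and 154 TPM in WT against 71.8 and 84.5 in KO CD4 cells (-1.11 ± 0.39, limma adjusted p = 0.194). Gars, for glycine, measured 105 and 140 TPM in WT against 59.5 and 74.5 in KO CD4 cells (-0.86 ± 0.30, limma adjusted p = 0.201). In all 6 genes the higher KO library was below the lower WT library.

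The remaining 6 cytosolic genes that were lower without overlap in CD4 KO cells had higher p-values. Kars, for lysine, differed by -0.88 ± 0.33 (limma adjusted p = 0.218), Yars by -0.85 ± 0.40 (0.326) and Sars, for serine, by -0.61 ± 0.30 (0.341). Sars measured 98.5 and 102 TPM in WT against 66.1 and 64.2 in KO CD4 cells. Aars, for alanine, measured 83.4 and 121 TPM in WT against 61.1 and 59.3 in KO CD4 cells (-0.73 ± 0.50, limma adjusted p = 0.497). Hars and Rars, for histidine and arginine, were nearest to WT, at -0.28 ± 0.35 and -0.26 ± 0.28. Hars measured 44.2 and 48.0 TPM against 36.2 and 39.5, and Rars 226 and 239 against 204 and 183. In Cars, for cysteine, the KO pair itself differed, at 26 and 53.8 TPM beside 46.0 and 60.7 in WT, so the groups overlapped.

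Phenylalanyl-tRNA synthetase is built from an alpha and a beta subunit, and in CD4 KO cells only the beta message was lower without overlap. Farsa, the alpha subunit, measured 226 and 272 TPM in WT against 267 and 309 in KO CD4 cells, with overlapping groups (0.21, limma adjusted p = 0.773), beside the lower Farsb. The difference between the subunits was not tested. Farsa spans 12.3 kb and Farsb 64.0 kb, and longer genes were lower in KO across the transcriptome, as given below. Qars, for glutamine, measured 52.0 and 56.3 TPM in WT against 59.9 and 112 in KO CD4 cells (0.59, limma adjusted p = 0.462). Vars, for valine, measured 81.4 and 172 TPM in WT against 193 and 238 in KO CD4 cells (0.85, limma adjusted p = 0.307). Both were higher in each KO library than in either WT library, with a KO or WT pair that itself spread widely.

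Among the 8 synthetases of the multisynthetase complex (Dars, Eprs, Iars, Kars, Lars, Mars, Qars and Rars), 6 were below WT in both CD4 KO libraries, Qars was above, and Mars overlapped, beside 36.5% of all genes below and 21.7% above. Their median log2 difference was -0.99, against -0.42 for the 12 cytosolic members outside the complex. Their total was 1268 and 1142 TPM in WT against 716 and 831 in KO CD4 cells, a ratio of 0.642, and that of the 12 others 1407 and 1459 against 1132 and 1272, a ratio of 0.839. In CD8 cells the median was -0.21 for these 8 genes and -0.22 for the 12 others. The scaffold messages did not share a direction in CD4 cells. Aimp2 measured 64.6 and 63.9 TPM in WT against 36.7 and 47.4 in KO CD4 cells (-0.61 ± 0.33, limma adjusted p = 0.394). Aimp1 stood at 33.9 and 28.1 against 26.5 and 35.1 TPM in the same cells and Eef1e1 at 10.3 and 12.4 against 14.9 and 10.6, both with overlapping groups.

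**Figure D2:**
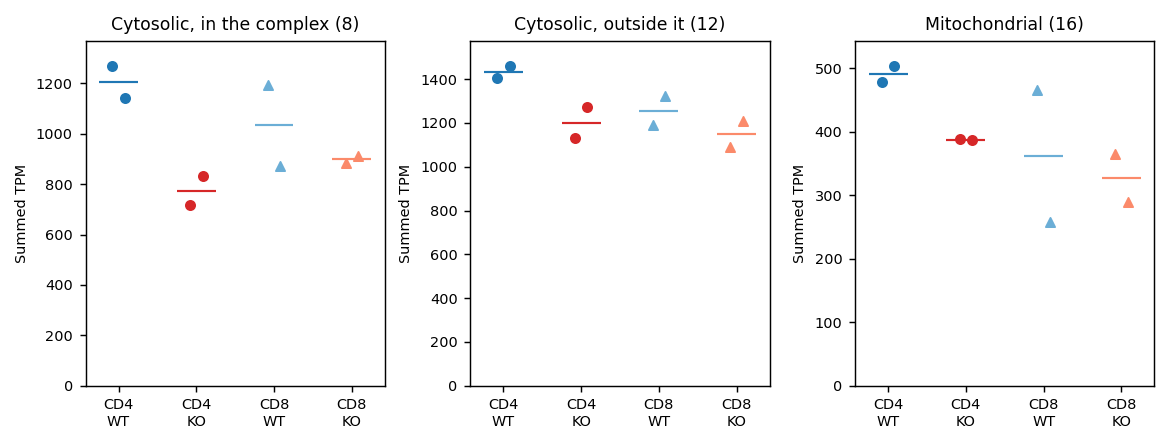
Summed TPM per library of the 8 cytosolic synthetase genes in the multisynthetase complex (left), the 12 outside it (middle) and the 16 mitochondrial ones (right), with points for the 8 libraries and a line at each group mean. In CD4 cells both KO libraries lie below both WT libraries in all 3 sums, and in CD8 cells the sums overlap between KO and WT. These positions hold for TPM as deposited and depend on the scaling, as given below.

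The mitochondrial members ran in CD4 cells from much lower in KO to above WT, with log2 differences from -2.67 to 0.98. Of the 16, 9 were lower and 7 higher, with a median log2 difference of -0.43. The groups did not overlap for 8 lower genes (Fars2, Iars2, Nars2, Pars2, Rars2, Sars2, Tars2 and Wars2) and 2 higher genes (Lars2 and Yars2), beside the 36.5% and 21.7% of all genes. The mitochondrial total was 478 and 503 TPM in WT against 388 and 387 in KO CD4 cells, a ratio of 0.790.

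Fars2, the single-chain mitochondrial phenylalanyl-tRNA synthetase (chromosome 13, 36117411 to 36537593 of mm10, plus strand), had the largest difference of all members. It measured 32.2 and 43.3 TPM in WT against 6.35 and 3.93 in KO CD4 cells (-2.67 ± 0.53, limma adjusted p = 0.0599). Rars2, for mitochondrial arginine (chromosome 4, 34614958 to 34660167, plus strand), measured 44.0 and 32.0 TPM in WT against 9.44 and 9.76 in KO CD4 cells (-1.86 ± 0.41, limma adjusted p = 0.0797). Both genes were several-fold below WT in each KO library. Pars2, for mitochondrial proline (chromosome 4, 106651069 to 106655282, plus strand), measured 27.4 and 26.1 TPM in WT against 8.0 and 7.16 in KO CD4 cells (-1.69 ± 0.52, limma adjusted p = 0.151). Lars2, for mitochondrial leucine (chromosome 9, 123366940 to 123462664, plus strand), lay the other way, at 14.3 and 21.4 TPM in WT against 38.3 and 32.9 in KO CD4 cells (0.98 ± 0.42, limma adjusted p = 0.280). Sars2, for serine, measured 7.16 and 6.83 TPM in WT against 2.86 and 1.91 in KO CD4 cells (-1.25 ± 0.58, limma adjusted p = 0.315), and Nars2, for asparagine, 24.8 and 17.0 against 11 and 8.50 (-1.01 ± 0.54, 0.379). Ears2, for glutamate, overlapped, since its WT pair stood at 5.66 and 18.1 TPM beside 6.63 and 3.57 in KO. Vars2, for valine, also had a WT pair far apart, at 2.46 and 16.2 TPM, with KO libraries between them. Cars2 and Mars2, for cysteine and methionine, were near WT, with differences of 0.01 ± 0.62 and 0.15 ± 0.48. For leucine the cytosolic Lars was lower and the mitochondrial Lars2 higher in both CD4 KO libraries, and the difference between them was not tested.

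The fit called 84 of 11786 genes in CD4 cells (0.713%), and 0 of the 36 members at an adjusted p of 0.05 (limma). At an unadjusted p of 0.05, 10 members were lower and 1 higher, against 11.7% and 5.03% of all genes. The spread in this fit is pooled over all 4 groups, so libraries that are not part of the comparison bear on its p-values. Without the library labelled CD8 WT replicate 2, with the same CD4 differences, limma called 9 members lower and 0 higher: Fars2 (adjusted p = 0.0196), Farsb (0.0248), Rars2 (0.0275), Dars (0.0275), Kars (0.0278), Lars (0.0295), Eprs (0.0310), Iars (0.0338) and Pars2 (0.0369). That fit called 4.26% of all genes lower. The count was also 9 without CD8 WT replicate 1 (4.20% of all genes lower) and was 10 with libraries weighted by their spread (7.43% lower), where Gars was added. Fars2 alone was called with genes of at least 5 TPM, after median-of-ratios scaling and in a fit of the CD4 groups alone, which called 0.94%, 0.67% and 1.34% of the genes tested lower. With any 1 of the other 6 libraries left out, limma called 0 members. Myeloid markers summed to 263 and 72.0 TPM in WT against 1286 and 2187 in KO CD4 cells, and B cell markers to 2655 and 2927 against 2023 and 1953, and their part in these differences was not tested. All 10 myeloid and 8 B cell markers were measured, and Elane and Mpo, which mark early neutrophils, were at 0 in CD4 WT replicate 2.

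**Figure D3:**
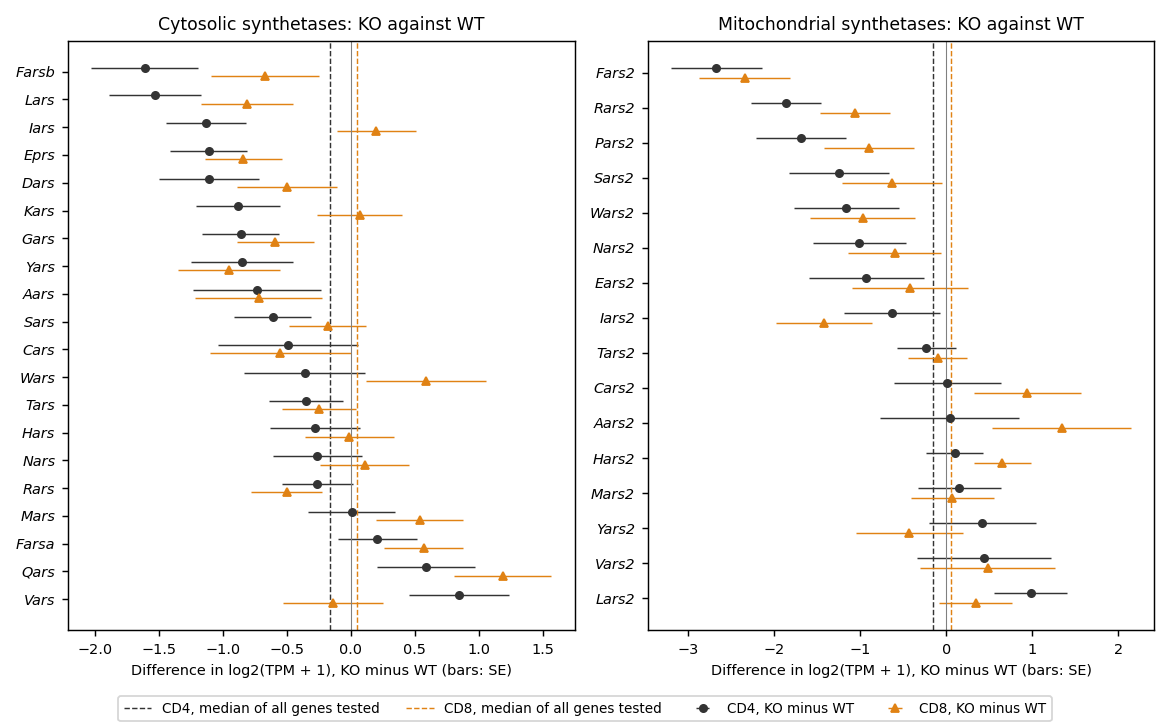
Difference in log2(TPM + 1) between KO and WT for each cytosolic (left) and mitochondrial (right) synthetase in CD4 cells (black circles) and CD8 cells (orange triangles), with bars for limma's standard error and dashed lines at the median of all genes tested. Fars2, Rars2 and Pars2 lie to the left in both cell types, and Qars lies to the right in both.

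In CD8 cells 18 synthetase genes had KO and WT values that did not overlap, beside 24 in CD4 cells, where the shares over all genes were 42.1% and 58.1%. Of the 20 cytosolic genes 13 were lower and 7 higher, with a median log2 difference of -0.22 against 0.05 over all genes. Of the 16 mitochondrial genes 10 were lower and 6 higher, with a median of -0.43. The fit called 35 of 11786 genes (0.297%) and 0 of the 36 members (limma). At an unadjusted p of 0.05, 5 members were lower and 1 higher, against 8.01% and 7.08% of all genes. The groups did not overlap for 7 cytosolic and 5 mitochondrial genes that were lower (19.1% of all genes) and for 5 cytosolic genes and 1 mitochondrial gene that were higher (23.0% of all genes).

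Qars had the lowest p of the cytosolic members in CD8 cells and was higher in KO. It measured 42.0 and 30.1 TPM in WT against 87.5 and 77.6 in KO CD8 cells (1.19 ± 0.38, limma adjusted p = 0.213). Farsa was also higher, at 245 and 150 TPM in WT against 275 and 294 in KO CD8 cells (0.57 ± 0.31, limma adjusted p = 0.419). Eprs measured 138 and 108 TPM in WT against 73.7 and 61.8 in KO CD8 cells (-0.84 ± 0.30, limma adjusted p = 0.248). Its KO libraries were well below both WT libraries. Yars, for tyrosine, measured 26.8 and 37.3 TPM in WT against 13.5 and 18.6 in KO CD8 cells (-0.95 ± 0.40, limma adjusted p = 0.310). Lars stood at 71.8 and 52.0 against 29.7 and 39.8 TPM (-0.81 ± 0.36, limma adjusted p = 0.331), and Gars at 118 and 139 against 86.0 and 83.9 (-0.59 ± 0.30, limma adjusted p = 0.396). None of these 6 genes overlapped between KO and WT.

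Among the mitochondrial genes in CD8 cells Fars2 again had the lowest p. It measured 56.4 and 23.5 TPM in WT against 7.67 and 5.34 in KO CD8 cells (-2.34 ± 0.53, limma adjusted p = 0.121). Rars2 measured 34.7 and 23.4 TPM in WT against 13.6 and 12.6 in KO CD8 cells (-1.06 ± 0.41, limma adjusted p = 0.279). Both were lower in each KO library although the WT pair spread widely. Iars2, for mitochondrial isoleucine, measured 15.1 and 6.89 TPM in WT against 4.10 and 2.48 in KO CD8 cells (-1.42 ± 0.56, limma adjusted p = 0.287). Hars2 was higher in both KO libraries than in either WT library, by 0.65 ± 0.33 on the log2 scale (limma adjusted p = 0.380).

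For most mitochondrial members the library labelled CD8 WT replicate 2 held lower values than replicate 1, with 8.20 against 41.0 TPM for Cars2, the cysteine enzyme, and 0.729 against 10.1 for Aars2, the alanine enzyme. It also held higher values for Aars, at 174 against 51.0 TPM, and Cars, at 69.3 against 22.2. Without that library the mitochondrial median was -0.74 and the cytosolic median -0.15, against -0.07 over all genes, and limma called 0 members and 0.314% of all genes, with Fars2 at -2.95 (adjusted p = 0.0707), while 9 members were lower and 1 higher at an unadjusted p of 0.05, against 10.2% and 6.41% of all genes. Both KO libraries were then below the remaining WT library for 10 cytosolic and 9 mitochondrial genes (41.0% of all genes) and above it for 8 and 3 (32.4% of all genes). With that library and without CD8 WT replicate 1, limma called 5 members (Aars, Aars2, Cars2, Farsa and Qars) among the 15.6% of all genes called, and the mitochondrial median was 0.00.

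Members that were lower without overlap in both cell types numbered 11, namely the cytosolic Eprs, Farsb, Gars, Lars, Rars and Yars and the mitochondrial Fars2, Iars2, Pars2, Rars2 and Wars2, a pattern held by 11.1% of all genes. Qars alone among the members was higher without overlap in both, against 8.93% of all genes. Both lists rest in part on the library labelled CD8 WT replicate 2. Without it Dars, Hars, Kars, Nars2, Sars2 and Tars2 joined the lower members, and Lars2 joined Qars. The share of all genes with either pattern in both cell types was not computed for that setting. The CD4 and CD8 comparisons share no library.

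**Figure D4:**
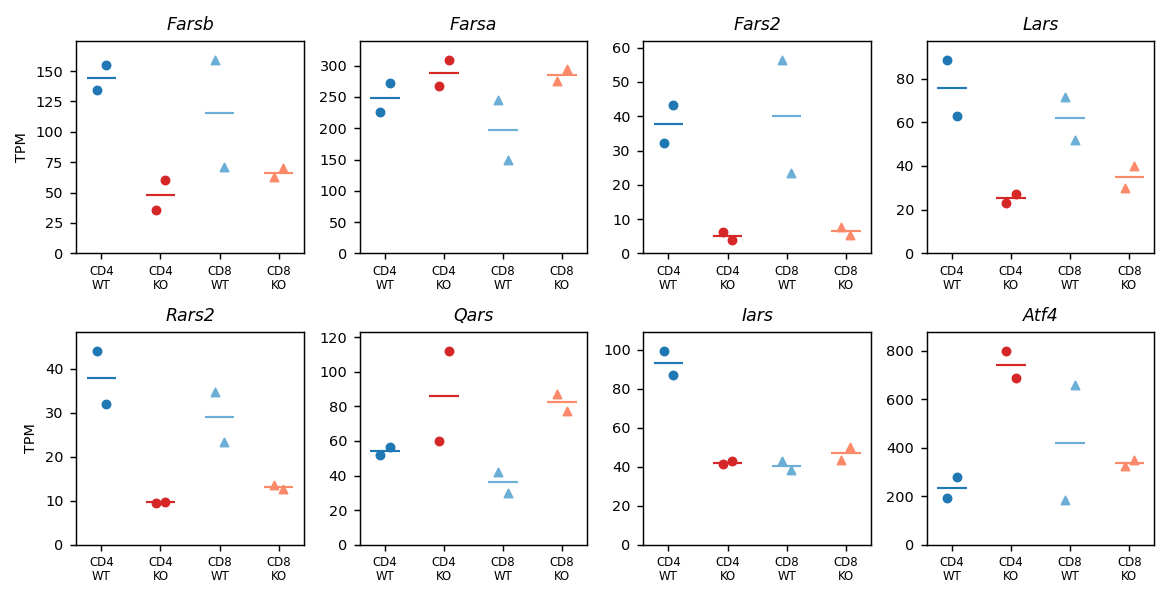
TPM of 7 synthetase genes and Atf4 in each of the 8 libraries, with points for libraries and a line at each group mean, on linear axes that start at 0. Fars2 and Rars2 are low in all 4 KO libraries, and Iars is high in the CD4 WT pair. Within each cell type Qars is higher in both KO libraries than in either WT library, but only slightly so in CD4 KO replicate 1.

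The test of the difference between the KO effects in CD8 and CD4 cells called 0 of 11786 genes (0.0%) and 0 of the 36 members (limma). At an unadjusted p of 0.05 it held 1 member higher and 0 lower, against 3.86% of all genes higher. That member was Iars, which measured 43.0 and 38.1 TPM in WT against 43.6 and 50.1 in KO CD8 cells, and so was near its CD4 KO level in all 4 CD8 libraries. Its KO effect in CD8 cells minus that in CD4 cells was 1.33 ± 0.44 (limma adjusted p = 0.701). Kars, the lysine enzyme, followed at 0.95 ± 0.46 (limma adjusted p = 0.701), with levels at 370 and 320 TPM in the WT and 178 and 195 in the KO libraries of CD4 cells, and at 378 and 205 in the WT and 298 and 287 in the KO libraries of CD8 cells. Vars had a difference of -0.99 ± 0.55 (limma adjusted p = 0.701), with 57.0 and 66.6 TPM in WT against 49.1 and 63.6 in KO CD8 cells beside its higher CD4 values. With CD8 WT replicate 2 left out, these differences were 1.24 for Iars, 0.51 for Kars and -0.88 for Vars. With replicate 1 left out instead, they were 1.42, 1.39 and -1.1. The size of the Kars difference thus depended on which CD8 WT library was kept. Without CD8 WT replicate 1, which leaves the library that stood apart, limma called 2 members (Cars2 and Kars) and 9.74% of all genes.

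Between the WT groups, 17 of 20 cytosolic genes and 11 of 16 mitochondrial genes were lower in CD8 than in CD4 cells in TPM, with medians of -0.29 and -0.37 against -0.26 over all genes. This direction depends on the scaling. After median-of-ratios scaling, which moves the median of all genes from -0.26 to 0.02, 10 cytosolic genes were lower and 10 higher, with a median of 0.00. Limma called 23 of 11786 genes (0.195%) and 0 members, and 4 members were lower at an unadjusted p of 0.05, against 5.39% of all genes. The WT groups did not overlap for 6 cytosolic and 2 mitochondrial genes lower in CD8 cells (24.8% of all genes) and for 1 of each that was higher (9.53% of all genes). Iars again had the lowest p, at -1.18 ± 0.31 (limma adjusted p = 0.288). Mars, the methionine enzyme, measured 103 and 90.1 TPM in WT CD4 cells against 66.0 and 43.0 in WT CD8 cells (-0.84 ± 0.34, limma adjusted p = 0.546). Tars2 followed at -0.83 ± 0.34 (limma adjusted p = 0.559). The 8 B cell markers summed to 2655 and 2927 TPM in WT CD4 cells against 450 and 1267 in WT CD8 cells. Their part in the differences between the WT groups was not tested. With CD8 WT replicate 2 left out, the medians were -0.05 and -0.01, and limma called 0 members and 0.611% of all genes. Without CD8 WT replicate 1 it called 6 members lower in CD8 cells (Aars2, Cars2, Dars, Iars, Mars and Tars2) and 8.48% of all genes lower.

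The same scaling moved the median of all genes from -0.16 to 0.03 in the CD4 KO comparison and from 0.05 to -0.04 in CD8 cells. After it 16 of 20 cytosolic members were still lower in CD4 KO cells, with a median of -0.33, and 9 of 16 mitochondrial members, with a median of -0.22. In CD8 cells 14 cytosolic and 11 mitochondrial members were lower, with medians of -0.32 and -0.51. The KO to WT ratio of the summed scaled TPM in CD4 cells was 0.870 for the cytosolic members, 0.745 for the complex and 0.976 for the cytosolic members outside it. In CD8 cells these ratios were 0.83, 0.821 and 0.838. The scaled sum of the complex did not overlap in CD8 cells, at 1100 and 1068 in WT against 864 and 916 in KO. That of the members outside the complex overlapped in CD4 cells, at 1238 and 1233 in WT against 1174 and 1237 in KO.

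Longer genes were lower in the KO libraries across the transcriptome, and the same order was seen among the synthetases. The genes tested spanned a median of 19 kb, the cytosolic synthetases 24.5 kb and the mitochondrial ones 21.6 kb. Among genes that span 40 to 100 kb the median CD4 difference was -0.56 over all genes, -1.11 over the 7 cytosolic members and -0.89 over the 4 mitochondrial members. Among genes under 20 kb it was 0.11 over all genes, -0.12 over 8 cytosolic members and 0.07 over 8 mitochondrial members. Fars2, with the largest difference, is also the longest member, at 420 kb, and the 2 members over 100 kb (Fars2 and Nars2) had a median of -1.84 against -1.12 over all such genes. Spearman's rho between span and CD4 difference was -0.42 over all genes, -0.88 over the 20 cytosolic members and -0.35 over the 16 mitochondrial members. In CD8 cells it was -0.32, -0.64 and -0.37. These are descriptions across genes, which share the libraries and are not independent.

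Some members did not follow the order of span. Pars2 spans 4.21 kb and was lower, while Lars2 spans 95.7 kb and was higher in CD4 KO cells. A smooth trend of the KO minus WT differences with span, fitted over all genes tested, was subtracted from those differences. The standard errors were left as they were. After this 17 of 20 cytosolic members were below 0 in the CD4 comparison, with a median of -0.44 against -0.03 over all genes. So were 12 of 16 mitochondrial members, with a median of -0.18. Limma then called 0 members and 0.127% of all genes, with 6 lower and 1 higher at an unadjusted p of 0.05, against 5.55% and 5.18% of all genes. With the trend removed the CD4 median was -0.58 over the 8 synthetases of the complex and -0.33 over the 12 cytosolic members outside it. The part of gene span in the differences between KO and WT was not otherwise tested.

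**Figure D5:**
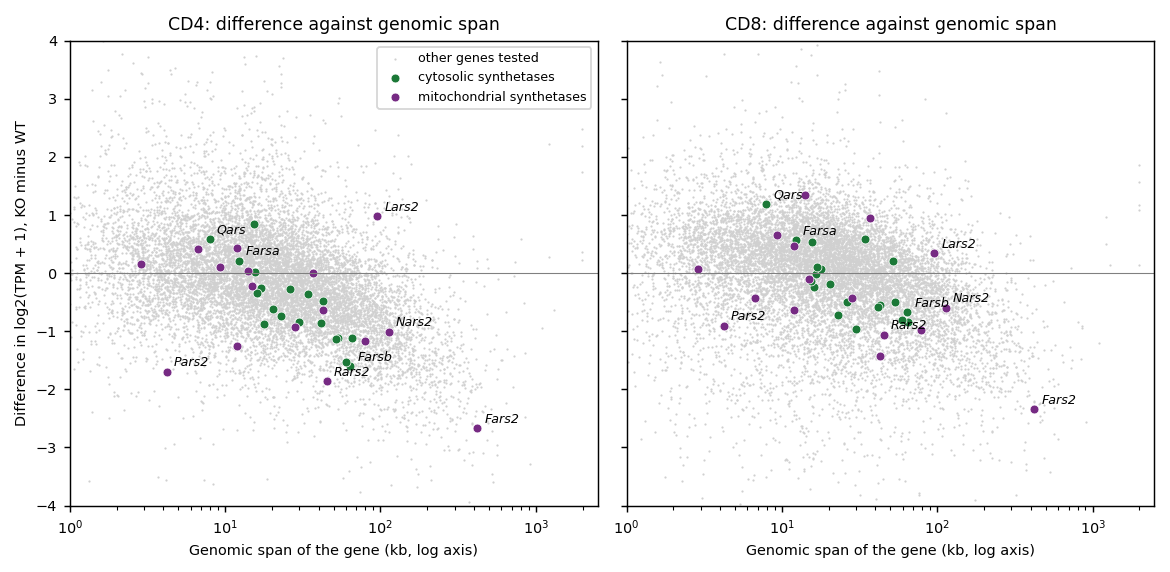
Difference in log2(TPM + 1) between KO and WT against genomic span in kb on a log axis, for all genes tested (grey), cytosolic members and mitochondrial members, in CD4 cells (left) and CD8 cells (right). Genes beyond the axes are not drawn. In CD4 cells the median of all genes is 0.11 under 20 kb and -1.12 at 100 kb and over, and Fars2, at 420 kb, is the lowest member in both panels.

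Other genes that act on transfer RNA were read from the same fit. Of 8 genes for export, editing and rescue of transfer RNA, 1 was called in CD4 cells, beside 0.713% of all genes. This was Dtd1, which removes D-amino acids from mischarged tRNA, at 157 and 123 TPM in WT against 13.7 and 11.4 in KO CD4 cells (-3.38 ± 0.44, limma adjusted p = 0.0290). In CD8 cells it stood at 174 and 67.6 TPM in WT and 28.3 and 28.6 in KO (-1.90 ± 0.44, limma adjusted p = 0.133). Dtd1 spans 169 kb. Its CD4 call was lost when the span trend was removed (-2.24, limma adjusted p = 0.150), with no filter on low values (0.0766) and when any library of CD4 WT, CD4 KO or CD8 KO was left out (0.0943 to 0.375). In CD8 cells it was called without the library labelled CD8 WT replicate 2 (-2.57, limma adjusted p = 0.0323) and without replicate 1 (-1.22, 0.0432). Limma called 0 of 4 genes of the mitochondrial transamidation and formylation pathway, 0 of 6 cytosolic elongation factors and 0 of 9 mitochondrial translation factors in either cell type. The medians of those 3 lists in CD4 cells were -0.10, 0.13 and -0.88, against -0.16 over all genes. At an unadjusted p of 0.05, 1, 0 and 3 of their genes were lower, against 11.7% of all genes. Of 7 genes for uncharged tRNA sensing and eIF2 kinases limma called 0, with a median of -0.15 in CD4 cells. In that list 1 gene was lower at an unadjusted p of 0.05, against the same 11.7% of all genes.

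The messages of the amino acid response were divided in direction. Of 23 response genes tested outside the synthetases, limma called 0 in either cell type. In CD4 cells 12 were higher and 11 lower, with a median of 0.11 against -0.16 over all genes. At an unadjusted p of 0.05, 5 were higher and 1 lower, against 5.03% and 11.7% of all genes. Atf4 itself measured 191 and 278 TPM in WT against 798 and 686 in KO CD4 cells (1.68 ± 0.50, limma adjusted p = 0.147). Ddit3, which encodes the stress factor CHOP, measured 155 and 95.1 TPM in WT against 362 and 247 in KO CD4 cells (1.29 ± 0.52, limma adjusted p = 0.249). Both were above WT in each CD4 KO library, beside the lower cytosolic synthetases. Without the library labelled CD8 WT replicate 2, limma called 4 of the 23 response genes higher in CD4 cells and 0 lower, Atf4 (adjusted p = 0.0124) and Ddit3 (0.0422) among them, with 2.26% of all genes called higher. Without overlap, 7 of the 23 response genes were higher and 6 lower in CD4 KO cells, beside 21.7% and 36.5% of all genes. Named after their values were seen, Sesn2 (2.14 ± 0.70, limma adjusted p = 0.174), Slc38a2 (1.45 ± 0.44, 0.148) and Ddit4 (1.16 ± 0.36, 0.157) were among the higher ones. The 6 lower ones were Eif4ebp1 (-1.02 ± 0.36, limma adjusted p = 0.201), Phgdh, Chac1, Trib3, Atf3 and Slc7a1. Asns, which makes asparagine, stood at 14.6 and 1.5 against 9.96 and 6.93 TPM. Chac1, which degrades glutathione, stood at 9.84 and 1.09 against 0.702 and 0.739, and Trib3, a pseudokinase, at 69.4 and 90.4 against 57.1 and 52.7. Eif2ak4, which encodes the GCN2 kinase that senses uncharged tRNA, measured 6.33 and 9.37 TPM in WT against 0.998 and 4.42 in KO CD4 cells (-1.41 ± 0.67, limma adjusted p = 0.326).

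In CD8 cells the library labelled CD8 WT replicate 2 set the direction of Atf4. Atf4 measured 185 and 657 TPM in WT against 325 and 347 in KO CD8 cells, a difference of -0.05 with that library (limma adjusted p = 0.969), 0.86 without it (0.182) and -0.97 with it as the only WT library (0.0474). Ddit3 stood at 145 and 505 against 309 and 311 TPM (0.19, limma adjusted p = 0.882), and the difference was -0.70 without CD8 WT replicate 1 and 1.09 without replicate 2. Asns stood at 8.19 and 229 TPM in CD8 WT, the library with the high value being the one with the high Aars and Cars.

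The core of the element that ATF4 and C/EBP dimers bind was searched in the promoters of the members. The letters were TGATGNAA, or TTNCATCA on the other strand, in RefSeq windows of GRCm38.p6 from 250 bases before to 50 after each gene's start. A window was found for 27 of the 36 members. At least 1 window held the motif for 5 of 13 cytosolic genes (38.5%) and 0 of 14 mitochondrial genes, and for 4.51% of 27025 symbols. The matches of 4 genes are shown with flanks, 5′ to 3′ on the strand of the gene, with the motif in capitals, because all of the member windows that held it belong to cytosolic genes.
Gars (chr6:55037960-55037989, plus strand, motif 30 bases before the start): tggctgcgctaTTTCATCAtgcaccgggcg
Iars (chr13:49682126-49682155, plus strand, motif 7 bases after the start): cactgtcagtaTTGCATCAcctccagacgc
Tars (chr15:11399655-11399684, minus strand, motif 15 bases before the start): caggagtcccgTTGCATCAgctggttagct
Yars (chr4:129189895-129189924, plus strand, motif 3 bases after the start): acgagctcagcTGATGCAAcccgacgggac

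These 4 genes were all lower in CD4 KO cells in TPM, with log2 differences of -0.86 for Gars, -1.13 for Iars, -0.35 for Tars and -0.85 for Yars, none of which passed the test. Yars measured 24.8 and 31.3 TPM in WT against 15 and 15.2 in KO CD4 cells. Tars, for threonine, overlapped, at 159 and 129 against 131 and 96.4. The cytosolic genes with a window and no match ran from -1.61 (Farsb) to 0.59 (Qars). A match is a run of letters and not a measured binding site.

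Depth and annotation bear on single members. The lowest mean coverage of a member was 1.2 per base, for Aars2 in the library labelled CD8 WT replicate 2. The spans of 4 members overlap another gene: Aars overlaps Exosc6 on the same strand, Mars overlaps Ddit3, Yars overlaps C77080 and Iars2 overlaps Rab3gap2 on the opposite strand. The sources used here do not say whether reads were counted by strand, so the values of these pairs may share reads.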

How the data were processed

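The submitters' processing notes name HISAT and the mouse build mm10. They give no version, and the program behind the gene tables and its strand setting were not given in the sources used here. The deposited tables give, per gene and library, TPM (scaled by the authors to the same total in every library), FPKM and coverage, per the file headers. Rows of the same symbol (136 to 261 symbols per library) were summed. Depth was estimated from coverage over FPKM. TPM keeps no read counts, so no counting interval can be given.

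The main test was limma 3.58.1 (R 4.3.3) with an intensity trend on log2(TPM + 1), for the 11786 genes that averaged 1 TPM or more across the 8 libraries, with 1 mean per group, a spread pooled over the 4 groups (4 residual degrees of freedom, prior 5.68) and Benjamini-Hochberg adjustment over all genes, called at 0.05. On this scale changes of low genes are understated. With 2 libraries a group an exact permutation test cannot reach 0.05. No label says that replicates were separate mice. The p-values therefore describe library-to-library spread, which could be technical. On simulated data for the CD4 comparison over 11786 genes, limma recovered 1 of 67 genes with a log2 change of 1, 22 of 67 with a change of 2 and 46 of 66 with a change of 3, with 3 false calls. The changed genes were drawn only from genes with higher levels in WT CD4 cells. These rates therefore do not cover the lowest members, such as Yars2 and Wars2. The simulation also gave every library the same spread per gene, pooled over the 4 groups. In the data the estimated library weights were 0.356 for CD8 WT, 1.27 for CD4 WT and 1.8 for CD4 KO. The spread thus differed between groups, and the simulated rates may not hold for this comparison.

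The members and lists were chosen with earlier results of these data known. Named in full were members called in any comparison, the 6 cytosolic and 4 mitochondrial members with the lowest p in each KO comparison, the 3 with the lowest p in the WT comparison and in the difference between KO effects, the highest and lowest member of each compartment, Trappc1, the scaffolds, Eif2ak4, Atf4, Asns, Chac1, Ddit3, Trib3 and up to 2 called genes of each other list. Other members were named after their values were seen. Alternatives were a pseudocount of 0.5, no filter, a minimum of 5 TPM, median-of-ratios scaling, library weights, the compared groups alone, a replicate block, removal of a smooth trend with genomic span (the longest single row of a symbol), and leaving out each library. Promoter windows are from RefSeq (GRCm38.p6), matched by symbol. The promoter sequence of 1 member with a match is not reported here.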

Additional observations from a re-analysis of the deposited data

How the results depend on the processing

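In CD4 cells limma called 84 genes and 0 members. The gene count was 0 with no filter on low values, 141 with median-of-ratios scaling, 1260 with library weights, 243 with the compared groups alone and 15 with the span trend removed. The member count was 1 (Fars2) with a minimum of 5 TPM, with scaling and with the compared groups alone, and 10 with library weights. In CD8 cells, with 35 genes called, it was 0 with no filter, with library weights and with the compared groups alone. For WT CD8 against CD4 cells, with 23 called, it was 1 with no filter, 15 with library weights and 0 with the compared groups alone. Scaling moved the cytosolic median to -0.33 in CD4 cells, to 0.04 for the difference between KO effects and to 0.00 between the WT groups. It moved the KO to WT ratio of summed TPM in CD4 cells to 0.870 (cytosolic) and 0.921 (mitochondrial), and the cytosolic ratio of CD8 WT to CD4 WT to 1.07. The cause was not tested.

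Leaving out each library in turn gave 0 to 768 genes and 0 to 9 members called in CD4 cells, with cytosolic medians of -0.74 to -0.54 and mitochondrial medians of -0.73 to -0.22. In CD8 cells it gave 0 to 1842 genes, 0 to 5 members, and medians of -0.35 to -0.15 and -0.74 to 0.00. For the difference between KO effects it gave 0 to 1148 genes, 0 to 2 members, and medians of 0.26 to 0.46 and -0.10 to 0.68. Between the WT groups it gave 0 to 1629 genes, 0 to 6 members, and medians of -0.53 to -0.05 and -0.63 to -0.01. A lone library in a group is assumed to vary like the others. Signs turned in CD8 cells for Trappc1 (0.33) and Ddit3 (-0.70) without CD8 WT replicate 1, and for Atf4 (0.86) without replicate 2. Leaving out the other CD8 WT library gave -0.66 for Trappc1, 1.09 for Ddit3 and -0.97 for Atf4.

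Libraries that share a replicate number did not deviate together, with correlations of -0.036 to 0.094 over the 6 pairs of groups, and no label says that a number marks a shared mouse or day. With a replicate block limma called 29 genes in CD4 cells, 26 in CD8 cells and 26 between the WT groups, 0 for the difference between KO effects, and 0 members. Of 541 values for named genes under the alternatives, 485 kept their direction and side of the threshold, 45 passed it in addition, 8 no longer passed it (all Dtd1 in CD4 cells) and 3 turned sign.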

Other observations

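The mitochondrial translation factors, which work with the charged mitochondrial tRNAs, were mostly lower in CD4 KO cells in TPM. Of the 9, 7 were lower, beside 58.0% of all genes. Their median log2 difference was -0.88, against -0.16 over all genes. Limma called 0 of them, and 3 were lower at an unadjusted p of 0.05, against 11.7% of all genes. After median-of-ratios scaling 6 of 9 were lower, with a median of -0.66 against 0.03 over all genes. With the span trend removed 7 of 9 were lower, with a median of -0.62 against -0.03 over all genes.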
